A study of Homo sapiens with 6 samples.

Results

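The axon guidance ligands and receptors were examined in RNA-Seq of Caki2 cells with and without PBRM1. The set is defined by gene symbol, but it was chosen with earlier results of these data known. It takes in the class 3 to 7 semaphorins (SEMA), plexins (PLXN), neuropilins (NRP), Eph receptors (EPH) and ephrins (EFN), and Slits and Robo receptors. It also takes in netrins (NTN) and UNC5 receptors, FLRT proteins, and the GDNF family co-receptors (GFRA) with RET. It holds 76 of the 25369 genes in the files, 38 of them ligands and 38 receptors. Caki2 is a cell line of clear cell renal cell carcinoma (ccRCC) that lacks PBRM1 protein, a subunit of the PBAF chromatin remodeling complex. It carried either an empty doxycycline-inducible lentiviral vector (Caki2+Vector, replicates A, B and C) or that vector with full length PBRM1 (Caki2+PBRM1, replicates A, B and C). The paper describes the rtTA activator together with the PBRM1 vector, and does not say whether the empty-vector line carried it. Cells were selected as stable lines. Doxycycline at 2 µg/mL, listed for all samples, was added to the medium ahead of experiments. How far the 3 replicates of a line were cultured apart is not described, so p-values measure the spread between these samples alone, and each condition is described as a single stable line.

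These families were named for their part in steering growing nerve fibers. A secreted or membrane-bound ligand meets a receptor on a neighboring cell, and the receptor changes the actin cytoskeleton through small GTPases, so that the cell is repelled or attracted. Epithelial and tumor cells use the same ligand and receptor pairs in cell contact, migration and tubule formation, and GDNF signaling through RET and GFRA1 guides branching of the developing kidney.

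PBRM1 itself was at 195.0, 182.3 and 182.2 normalized counts in Caki2+Vector A, B and C and at 2431.7, 2520.7 and 2682.4 in Caki2+PBRM1 A, B and C. Its log2 fold change was 3.76 (limma adjusted p = 3.33e-29, SE 0.056), which follows the labels. Transcript was thus also read in Caki2+Vector, whose vector was empty. In Caki2+PBRM1, counts per gene cannot tell the endogenous transcript from the construct. A normalized count is the number of reads on a gene divided by a size factor for the sample. The samples held 7312955 to 10835355 reads on genes. Within Caki2+PBRM1 the counts of replicate pairs differed by 1.19 to 1.22 in chi-square per degree of freedom, where counting noise alone gives about 1. Within Caki2+Vector this was 1.34 for B and C but 3.09 and 2.84 for A against them, so Caki2+Vector A stood apart. Values without it are given for some of the members it moved. Of 12 markers of a renal epithelial carcinoma, 11 reached a normalized count of 10 in at least 3 samples, led by VIM, KRT8, CDH2 and KRT18.

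Of the 76 members, 50 reached a normalized count of 10 in at least 3 samples and were tested. Upon PBRM1 re-expression 28 were upregulated, 1 was downregulated (NTN1) and 21 received no call at an adjusted p under 0.05. Thus 56.0% of tested members were upregulated, while 16.2% of all 13303 tested genes were upregulated and 13.0% downregulated. A log2 fold change of at least 0.5 was reached by 17 of the upregulated members, or 34.0% of those tested, as by 5.4% of all genes. With edgeR on the recovered reads 29 members were upregulated and 1 was downregulated (16.4% and 13.5% of all genes), and with DESeq2 22 and 1 were (11.2% and 7.77%). A log2 fold change above 0 was measured in 38 tested members, and in 49.4% of all genes. The median log2 fold change of the tested members was 0.29, against -0.004 for all tested genes, with a median SE of 0.095 and 0.083. In 29 members every Caki2+PBRM1 value lay above every Caki2+Vector value and in 4 members every value lay below, shares which were 22.1% and 19.6% among all genes.

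The counts of members rest in part on genes near the filter. EPHB3 reached 10 in no Caki2+Vector sample and FLRT2 in 1 of them, so both entered the test mainly through Caki2+PBRM1. RET reached 10 in all Caki2+Vector samples and in 2 of Caki2+PBRM1. Of the 47 members at 10 or more in every sample, 26 were upregulated and 1 was downregulated, and their median log2 fold change was 0.26. Under that filter 2042 of all 12592 tested genes were upregulated and 1701 downregulated. Calls were spread over ligands and receptors: 15 of 27 tested ligands and 13 of 23 tested receptors were upregulated, with a median of 0.22 and 0.31. The background of these counts, and of the family counts that follow, is 16.2% upregulated and 13.0% downregulated among all genes tested. Cells of a line and RNA per cell cannot be told apart in bulk RNA, so a fold change can reflect more expressing cells or more RNA in each.

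**Figure D1:**
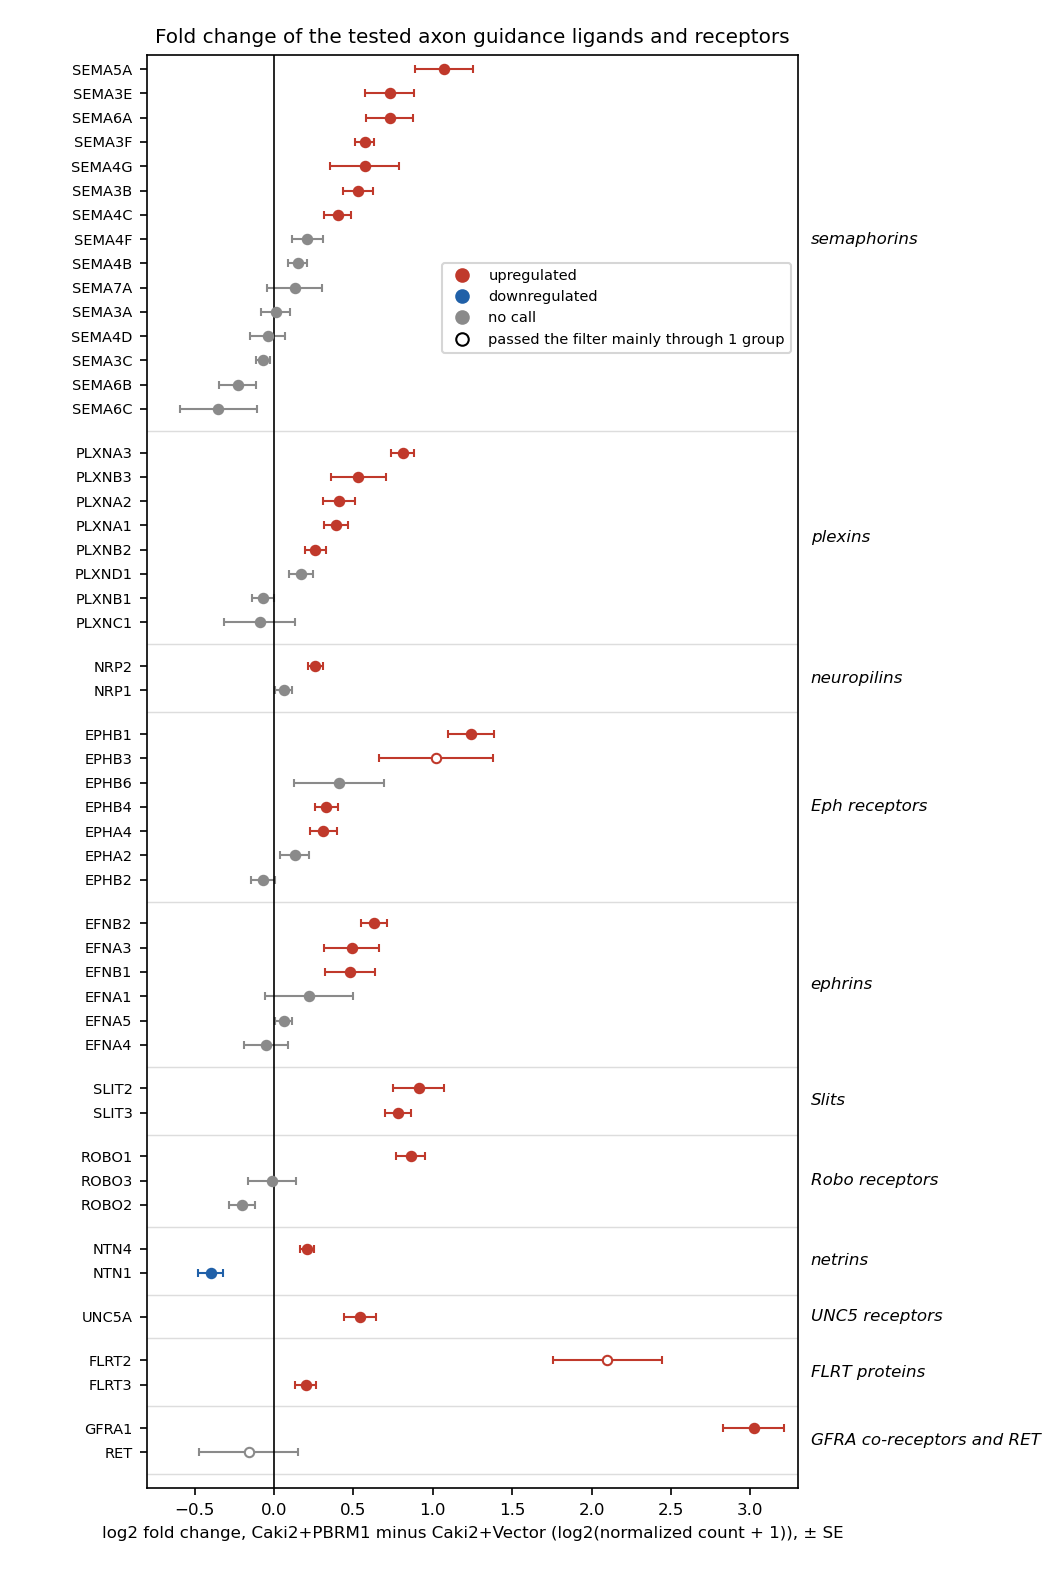
Log2 fold change (Caki2+PBRM1 minus Caki2+Vector, on the log2(normalized count + 1) scale) of the 50 tested members, with bars of 1 SE from limma, grouped by family. Red points are upregulated, the blue point (NTN1, -0.40) is downregulated, and gray points received no call. Open points (in the legend, mainly through 1 group) are EPHB3, FLRT2 and RET, which did not reach 10 in every sample. GFRA1 (3.02) and FLRT2 (2.10) lie farthest to the right, and upregulated members occur in each family.

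GFRA1 changed most among all members. It encodes the membrane-anchored co-receptor that binds GDNF and presents it to the receptor tyrosine kinase RET. GFRA1 was at 13.3, 25.5 and 25.2 normalized counts in Caki2+Vector A, B and C, and at 167.9, 191.1 and 161.1 in Caki2+PBRM1 A, B and C. The groups were far apart, and the lowest value was that of Caki2+Vector A. The means were 21.3 ± 7.0 (SD, n = 3) and 173.4 ± 15.7 (SD, n = 3), a ratio of 8.14 and a log2 fold change of 3.02 (limma adjusted p = 3.88e-11, SE 0.193), or 2.72 without Caki2+Vector A. The gene spans chr10:117816436-118036315 (minus strand) of GRCh37, the build of the files (hg19).

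RET, the signaling partner of GFRA1, received no call. It was at 10.4, 13.2 and 12.0 normalized counts in Caki2+Vector and at 11.9, 8.9 and 10.9 in Caki2+PBRM1, and the groups overlapped (log2 fold change -0.16, limma adjusted p = 0.753, SE 0.313). At 10 to 14 reads per sample this test had little precision. Per kilobase of transcript, GFRA1 was near RET in Caki2+Vector (2.33 and 2.11 normalized counts per kb) and above it in Caki2+PBRM1 (18.9 and 1.88). The other co-receptors were barely read. GFRA2, which prefers neurturin, had means of 0.9 and 4.8, GFRA3, the artemin co-receptor, had 0.3 and 0.3, and GFRA4 had no read in any sample.

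Of the ligands of these receptors, all but neurturin were scarce. GDNF had a single read in all 6 samples, PSPN (persephin) had 2 and ARTN (artemin) stayed at means of 4.5 and 3.1. NRTN (neurturin) was the only GDNF family ligand to be tested, with 38.8 ± 3.4 and 48.2 ± 4.9 normalized counts (SD, n = 3), a log2 fold change of 0.31 (adjusted p = 0.197 from limma). Per kilobase of transcript it lay at 25.4 and 31.6 normalized counts per kb, above GFRA1 and RET. NCAM1, an adhesion molecule that also serves GFRA1 as a RET-independent receptor for GDNF, was upregulated from 25.4 ± 3.0 to 71.7 ± 12.2 (log2 fold change 1.46, adjusted p = 2.54e-07 from limma).

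Both Slits that were expressed were upregulated, and so was ROBO1 among their receptors. Slits are large secreted ligands that repel cells through Robo receptors. SLIT2 was at 51.1, 34.0 and 44.3 normalized counts in Caki2+Vector A, B and C and at 80.2, 88.0 and 74.7 in Caki2+PBRM1 A, B and C. SLIT3 was at 201.6, 244.7 and 250.5 in Caki2+Vector and at 406.2, 393.8 and 392.8 in Caki2+PBRM1. For neither gene did the groups overlap. The log2 fold change of SLIT2 was 0.91 (limma adjusted p = 6.9e-05, SE 0.162) and that of SLIT3 was 0.78 (SE 0.081, adjusted p = 9.06e-09), or 1.04 and 0.68 without Caki2+Vector A. SLIT1 had means of 5.9 and 6.4 and was not tested.

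ROBO1, the widely expressed Slit receptor, was at 134.4, 146.4 and 158.2 normalized counts in Caki2+Vector and at 273.0, 259.5 and 263.5 in Caki2+PBRM1, with a log2 fold change of 0.86 (limma adjusted p = 1.01e-08, SE 0.090). ROBO2, the receptor best known in the developing kidney, was at 313.4, 274.9 and 291.2 in Caki2+Vector and at 258.9, 233.8 and 271.9 in Caki2+PBRM1. Its values were lower in Caki2+PBRM1 in every sample, yet the log2 fold change of -0.20 did not pass (adjusted p = 0.0604), and it passed without Caki2+Vector B (-0.25, adjusted p = 0.0448). Per kilobase of transcript the order of these receptors turned over. ROBO2 lay at 30.5 to 34.7 normalized counts per kb in Caki2+Vector, where ROBO1 lay at 19.4 to 22.8. In Caki2+PBRM1 ROBO1 lay at 37.5 to 39.4 and ROBO2 at 25.9 to 30.2. ROBO3 had means of 67.2 and 66.7 and a log2 fold change of -0.01 (adjusted p = 0.969), and ROBO4, an endothelial receptor, had 7 reads in all.

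The study's qPCR primers for GFRA1 and SLIT2, the members it chose for amplification, show which exons of these genes were assayed. Their qPCR values were not analysed here. The SLIT2 pair matches exons 4 and 5 of 37 of transcript ENST00000504154 (amplicon of 95 nt, chr4:20270478-20469442 of GRCh37) and the GFRA1 pair matches exon 6 of 11 of ENST00000355422 (111 nt, chr10:117884776-117884886 of GRCh37, minus strand). The primers are written 5′ to 3′, in capitals throughout.
SLIT2 forward: TCTTGGGACTGCGAAGCTAT
SLIT2 reverse: TTTTTATGTCAACTGCCCCAC
GFRA1 forward: AAGCACAGCTACGGAATGCT
GFRA1 reverse: GTTGGGCTTCTCCCTCTCTT

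Among the semaphorins, 7 of 15 tested members were upregulated and none was downregulated by limma (the median of the 15 was 0.21). Of all genes tested, 16.2% were upregulated and 13.0% downregulated. Class 3 semaphorins are secreted and act through neuropilins and class A plexins, except SEMA3E, which binds plexin D1 directly. SEMA3B was at 480.0, 612.2 and 664.0 normalized counts in Caki2+Vector A, B and C and at 834.0, 821.3 and 855.2 in Caki2+PBRM1 (log2 fold change 0.53, limma adjusted p = 1.17e-03, SE 0.095). SEMA3F, the preferred ligand of NRP2, was at 455.4, 479.9 and 523.8 in Caki2+Vector and at 727.9, 681.7 and 759.6 in Caki2+PBRM1 (0.57, SE 0.062, adjusted p = 2.2e-08). SEMA3E was lower, at 52.1, 43.5 and 40.8 in Caki2+Vector and 79.1, 78.2 and 69.7 in Caki2+PBRM1 (0.73, SE 0.154, adjusted p = 5.39e-04). In all 3 genes each Caki2+PBRM1 sample lay above each Caki2+Vector sample, and Caki2+Vector A was the lowest sample of SEMA3B, whose log2 fold change was 0.39 without it. SEMA3C and SEMA3A, which bind NRP1, received no call (-0.07, adjusted p = 0.197, and 0.01, adjusted p = 0.947), although SEMA3C had the highest level per kilobase of the class, with 352 and 335 normalized counts per kb.

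Outside class 3 the changes were uneven. SEMA5A, a transmembrane semaphorin with thrombospondin repeats, was at 31.2, 28.3 and 25.2 normalized counts in Caki2+Vector and at 67.2, 64.0 and 50.4 in Caki2+PBRM1 (log2 fold change 1.07, limma adjusted p = 3.78e-05, SE 0.182). SEMA6A, a transmembrane ligand of plexins A2 and A4, was at 62.5, 44.4 and 62.3 in Caki2+Vector and at 94.2, 88.9 and 96.5 in Caki2+PBRM1 (0.73, SE 0.148, adjusted p = 3.16e-04). Its relatives received no call, SEMA6B at -0.23 (adjusted p = 0.136) and SEMA6C at -0.35 (adjusted p = 0.287). Among the class 4 semaphorins, ligands of class B plexins, SEMA4C was upregulated from 221.4 ± 26.1 to 291.3 ± 15.0 (SD, n = 3, log2 fold change 0.40, adjusted p = 6.93e-04), or by 0.32 without Caki2+Vector A.

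SEMA4G was called at 23.7, 20.8 and 19.2 normalized counts in Caki2+Vector and 32.5, 32.9 and 30.2 in Caki2+PBRM1 (log2 fold change 0.57, limma adjusted p = 0.0456, SE 0.215). This call was fragile: it was lost without any library other than Caki2+Vector A (adjusted p of 0.0889 to 0.125), with DESeq2 (0.225), with no filter on low counts (0.0698), and with quantile normalization (0.087). Moreover 24.4% of the bases of its exons are shared with other genes, among them MRPL43 on the opposite strand, and whether counting used strand is not given. SEMA4B, the semaphorin with the highest level per kilobase, was at 1992.8, 2473.4 and 2298.8 in Caki2+Vector and at 2478.3, 2434.5 and 2573.3 in Caki2+PBRM1. The groups overlapped through Caki2+Vector B, and the log2 fold change of 0.15 did not pass (adjusted p = 0.069), but it passed without Caki2+Vector B (0.22, adjusted p = 0.00336) and with edgeR (0.0350). Without Caki2+Vector A, its lowest sample, the log2 fold change of SEMA4B was 0.07 (limma adjusted p = 0.168). SEMA4F (0.21, adjusted p = 0.0968) passed only without Caki2+Vector A (0.28, adjusted p = 0.0153), and SEMA4D (-0.04) and SEMA7A (0.13) stayed near 0.

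The plexins, the receptors of these ligands, were upregulated in 5 of 8 tested members, which took in all 3 tested class A plexins. PLXNA3, a receptor chain for class 3 semaphorins, was at 244.2, 278.7 and 285.3 normalized counts in Caki2+Vector and at 482.0, 469.3 and 463.3 in Caki2+PBRM1 (log2 fold change 0.81, limma adjusted p = 4.94e-10, SE 0.073). PLXNA1, the most general of these chains, was at 453.5, 587.6 and 556.1 and at 671.6, 667.5 and 740.3 (0.39, SE 0.078, adjusted p = 8.1e-04). PLXNA2 had means of 134.9 ± 12.2 and 179.4 ± 8.8 (0.41, adjusted p = 2.16e-03). Groups did not overlap in any of the 3, and Caki2+Vector A was the lowest sample of each, with a log2 fold change of 0.28 for PLXNA1 without it.

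PLXNB2, a receptor of class 4 semaphorins, had the highest level per kilobase of all members. It was at 4369.9, 5320.9 and 5260.5 normalized counts in Caki2+Vector and at 5875.1, 5865.4 and 6151.2 in Caki2+PBRM1, and rose by 0.26 on the log2 scale (limma adjusted p = 0.0138, SE 0.067). Here Caki2+Vector A weighed heavily: without it the log2 fold change was 0.17, although the adjusted p was 8.47e-07. PLXNB3 was at 60.6, 95.4 and 70.7 in Caki2+Vector and at 82.3, 115.5 and 131.8 in Caki2+PBRM1, with overlap between Caki2+Vector B and Caki2+PBRM1 A (0.53, SE 0.173, adjusted p = 0.0266). Its call was lost without Caki2+Vector C (adjusted p = 0.0832), Caki2+PBRM1 B (0.0973) or Caki2+PBRM1 C (0.137), and 20.3% of its exon bases are shared with SRPK3. Without Caki2+Vector A its log2 fold change was 0.39. PLXNB1 and PLXNC1 received no call, at -0.07 and -0.09, and neither did PLXND1, the SEMA3E receptor, at 0.17 (adjusted p = 0.0897). PLXND1 passed without Caki2+Vector C (0.26, adjusted p = 0.00495). Without Caki2+Vector A, its lowest sample, the log2 fold change of PLXND1 was 0.06 (limma adjusted p = 0.392).

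The neuropilins hold class 3 semaphorins in the plexin complex. NRP2 was at 1445.6, 1505.0 and 1344.8 normalized counts in Caki2+Vector and at 1714.7, 1703.9 and 1728.1 in Caki2+PBRM1, and was upregulated by 0.26 on the log2 scale (limma adjusted p = 4.98e-05, SE 0.046). NRP1, the receptor for SEMA3A, had means of 911.6 ± 55.1 and 949.7 ± 11.4 (SD, n = 3) with overlapping samples and a log2 fold change of 0.06 (adjusted p = 0.413). Whether the changes of NRP2 and NRP1 differed from each other was not tested.

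Eph receptors are receptor tyrosine kinases that meet ephrins on neighboring cells and signal in both directions. Of 14 Eph receptors 7 were tested and 4 were upregulated, 3 of them of class B. EPHB1 was at 43.5, 46.3 and 59.9 normalized counts in Caki2+Vector and at 110.5, 112.0 and 132.6 in Caki2+PBRM1 (log2 fold change 1.24, limma adjusted p = 7.71e-08, SE 0.144). The lowest Caki2+PBRM1 value was thus well above the highest Caki2+Vector value. EPHB4, the receptor of ephrin-B2, had means of 325.4 ± 23.4 and 409.1 ± 16.6 (0.33, adjusted p = 6.88e-04). EPHB3 was at 6.6, 3.8 and 7.2 in Caki2+Vector and at 11.9, 13.3 and 12.6 in Caki2+PBRM1 (1.02, SE 0.357, adjusted p = 0.0302). These values rest on 4 to 15 reads, the call was lost with DESeq2 (0.168) and with quantile normalization (0.0563), and it was lost without Caki2+Vector B (0.12) or any Caki2+PBRM1 replicate (0.0672 to 0.101).

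EPHB2 (-0.07, adjusted p = 0.510 from limma) and the kinase-dead EPHB6 (0.41, adjusted p = 0.294, means of 11.8 and 16.0) received no call. Of class A, EPHA4, which binds ephrins of both classes, rose from 184.2 ± 8.4 to 228.4 ± 8.8 (log2 fold change 0.31, adjusted p = 0.00698), a call that DESeq2 did not make (0.0534). EPHA2, an epithelial receptor and the Eph receptor with the highest level per kilobase, was at 1128.4, 1506.0 and 1409.5 in Caki2+Vector and at 1433.0, 1457.7 and 1490.6 in Caki2+PBRM1. The groups overlapped, and the log2 fold change was 0.13 (adjusted p = 0.342), 0.00 without Caki2+Vector A and 0.21 without Caki2+Vector B, where it passed (adjusted p = 0.0438). The other 7 class A receptors were not tested.

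Among the ephrins both tested class B members were upregulated. EFNB2 (ephrin-B2), a transmembrane ligand of EPHB receptors, was at 193.1, 186.1 and 183.4 normalized counts in Caki2+Vector and at 296.8, 301.3 and 271.9 in Caki2+PBRM1 (log2 fold change 0.63, limma adjusted p = 6.64e-07, SE 0.082). EFNB1 had means of 49.8 ± 9.1 and 68.9 ± 1.3 (0.48, adjusted p = 0.0228), but the call was lost without Caki2+Vector A (0.33, adjusted p = 0.121), without any Caki2+PBRM1 replicate (0.0614 to 0.0743) and with DESeq2 (0.124). Of the exon bases of EFNB2, 36.3% are shared with an unnamed annotated gene, ENSG00000284966, on the opposite strand.

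Class A ephrins are anchored by a lipid. EFNA3 had means of 40.7 ± 7.3 and 57.2 ± 4.9 normalized counts (log2 fold change 0.49, limma adjusted p = 0.0317, SE 0.173), and 46.9% of its exon bases are shared with the read-through gene EFNA4-EFNA3. The call was lost with DESeq2 (0.177), with quantile normalization (0.0569), without Caki2+Vector C (0.163) and without any Caki2+PBRM1 replicate (0.0592 to 0.133). EFNA5, the ephrin with the highest level per kilobase, was at 587.9, 623.5 and 626.8 in Caki2+Vector and at 632.6, 624.0 and 656.3 in Caki2+PBRM1, overlapping and without a call (0.06, adjusted p = 0.485). EFNA1 (0.22, adjusted p = 0.601) and EFNA4 (-0.05, adjusted p = 0.807) also received no call.

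Netrins were the only family with calls in both directions. NTN1, the secreted ligand of DCC and UNC5 receptors, was at 317.1, 318.4 and 336.8 normalized counts in Caki2+Vector and at 258.9, 250.7 and 227.4 in Caki2+PBRM1. Each Caki2+PBRM1 sample lay below each Caki2+Vector sample, with a log2 fold change of -0.40 (limma adjusted p = 1.97e-04, SE 0.078). NTN4, a netrin that binds laminins in basement membranes, was at 1419.1, 1511.6 and 1483.8 in Caki2+Vector and at 1729.8, 1655.0 and 1709.6 in Caki2+PBRM1 (0.21, SE 0.044, adjusted p = 5.36e-04). UNC5A, a repulsive netrin receptor, was at 127.8, 159.7 and 129.4 in Caki2+Vector and at 190.6, 213.3 and 203.1 in Caki2+PBRM1 (0.54, SE 0.101, adjusted p = 1.12e-04). The attractive receptor DCC had 2 reads in all 6 samples, and its relative NEO1 (neogenin) was upregulated from 511.9 ± 27.0 to 580.2 ± 27.7 (0.18, adjusted p = 0.0266). The NEO1 call was lost with DESeq2 (0.118) and without Caki2+Vector C (0.127), Caki2+PBRM1 A (0.160) or Caki2+PBRM1 B (0.0546).

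FLRT proteins are transmembrane ligands of UNC5 receptors and latrophilins. FLRT2 was at 2.8, 4.7 and 10.8 normalized counts in Caki2+Vector and at 24.9, 25.8 and 28.5 in Caki2+PBRM1 (log2 fold change 2.10, limma adjusted p = 2.62e-05, SE 0.346). The values rest on 3 to 34 reads per sample, and the log2 fold change was 1.66 with a pseudocount of 4 and 1.74 without Caki2+Vector A. FLRT3 was at 373.9, 422.3 and 396.7 in Caki2+Vector and at 438.7, 453.3 and 480.1 in Caki2+PBRM1 (0.20, SE 0.067, adjusted p = 0.0232). That call was lost without Caki2+Vector A (0.0559), Caki2+PBRM1 B (0.0645) or Caki2+PBRM1 C (0.139), and with DESeq2 (0.0970).

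**Figure D2:**
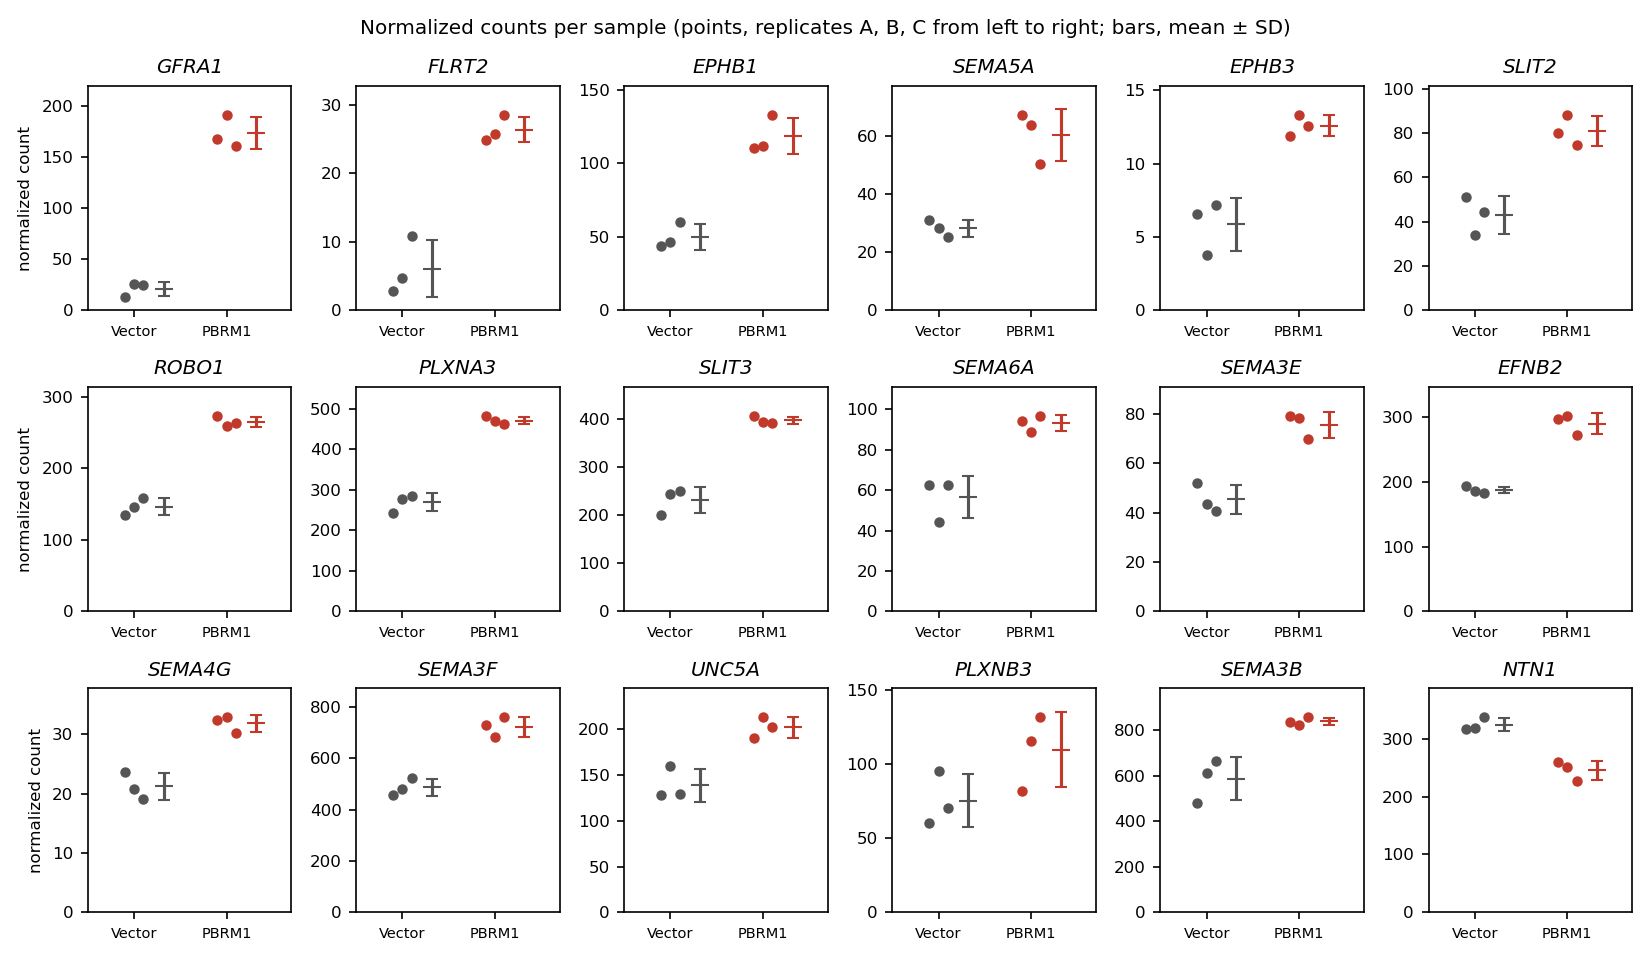
Normalized counts (vertical axes from 0) of the 17 members upregulated by a log2 fold change of at least 0.5 and of NTN1, 1 panel per gene. Points are samples A, B and C of Caki2+Vector (gray) and Caki2+PBRM1 (red), and the bars beside them give the mean ± SD (n = 3). The groups are apart in each panel except PLXNB3, and NTN1 is the panel in which Caki2+PBRM1 is lower.

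The heatmap of members by sample shows where replicates of a group differ. Caki2+Vector A was the lowest of the 3 Caki2+Vector samples in 28 of 50 members (56.0%), a position it held in 37.6% of all 13303 tested genes. Without it the log2 fold change of the 28 upregulated members was lower in 19 and higher in 9, by differences from -0.36 (FLRT2) to 0.13 (SLIT2). Then 27 members were upregulated, 26 of which were also upregulated with all samples. In that fit 2252 of all 13303 tested genes were upregulated.

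**Figure D3:**
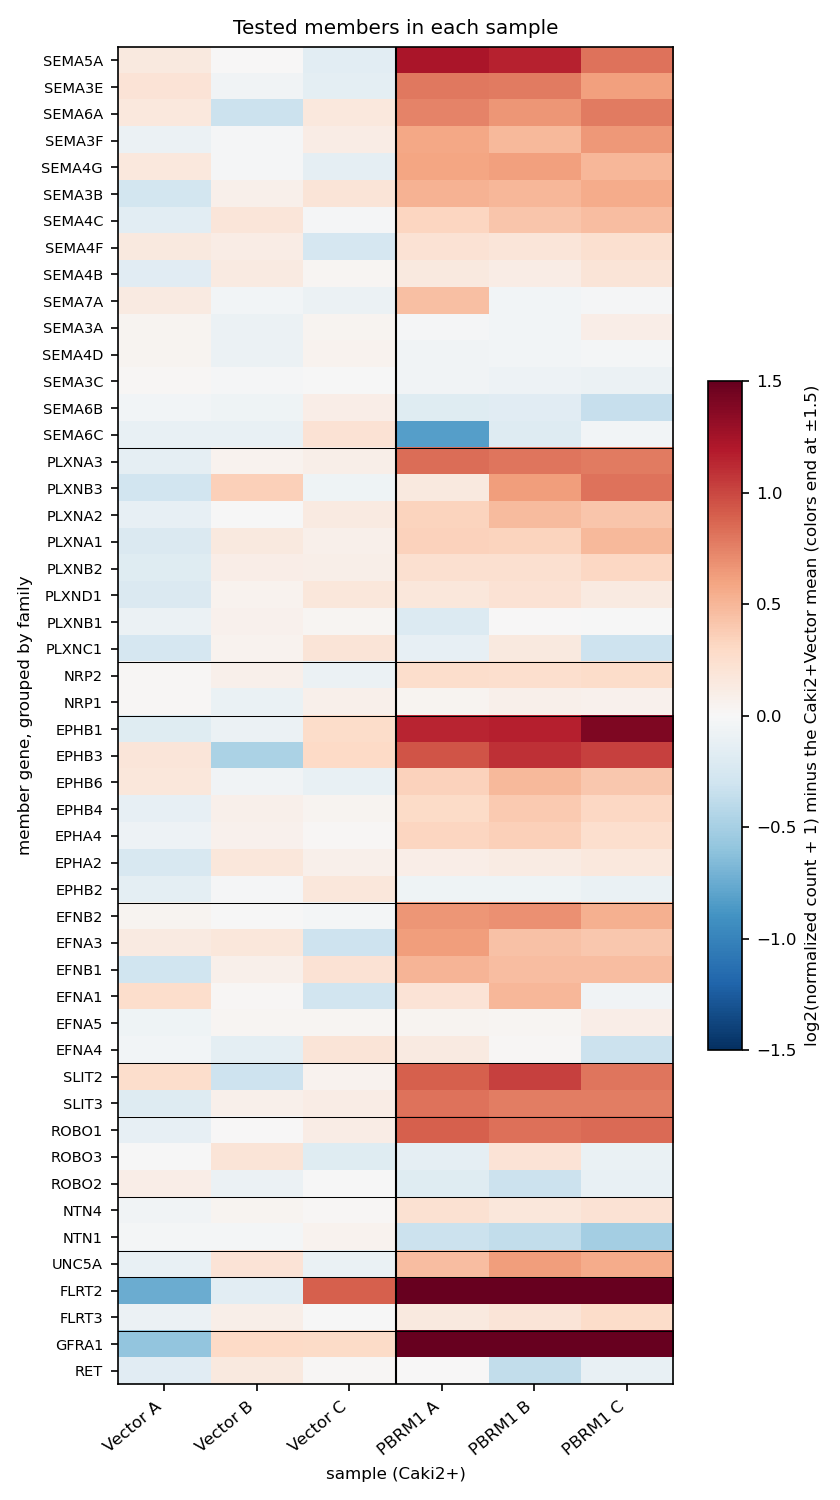
Log2(normalized count + 1) of each tested member (rows, by family) in each of the 6 samples (columns), minus the mean of Caki2+Vector, where the colors end at 1.5 in either direction. The 3 Caki2+PBRM1 columns are mostly red, while Caki2+Vector A differs in tone from B and C in many rows, such as GFRA1 (13.3 against 25.5 and 25.2 normalized counts).

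Levels were compared between genes as normalized counts per kilobase of the canonical transcript. The most abundant receptors were PLXNB2 (778 in Caki2+Vector and 931 in Caki2+PBRM1), EPHA2 (342 and 370) and NRP2 (216 and 258), and the most abundant ligands were SEMA4B (597 and 660), NTN4 (406 and 469) and SEMA3C (352 and 335). Several members with large fold changes had lower levels. EPHB1 went from 10.7 to 25.3 normalized counts per kb, SLIT2 from 5.36 to 10.1, and SEMA5A from 2.40 to 5.15. SLIT3 went from 23.9 to 40.9 and UNC5A from 37.2 to 54.2. The level of FLRT2 (0.182 and 0.784) is understated if shorter transcripts are used, since its canonical transcript is 33681 nt long.

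**Figure D4:**
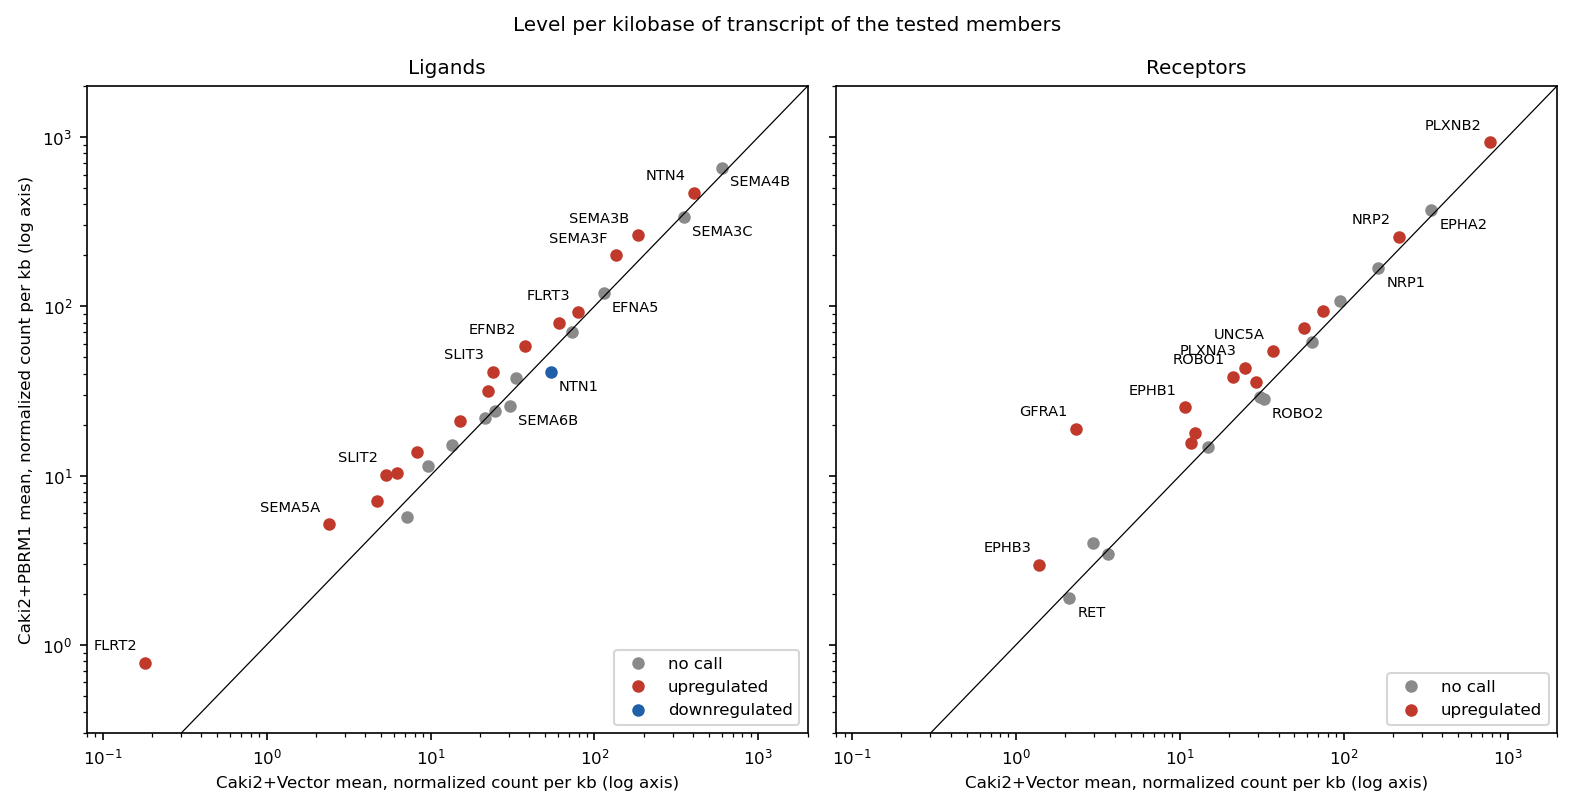
Mean level per kilobase of transcript in Caki2+Vector (horizontal) and Caki2+PBRM1 (vertical) of the tested ligands (left) and receptors (right), both axes logarithmic, with the line of equal levels. Red points are upregulated, the blue point is NTN1 and gray points received no call. The most abundant members, such as PLXNB2 (778 and 931) and SEMA4B (597 and 660), lie near the line, and GFRA1 (2.33 and 18.9) lies farthest above it among receptors.

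The promoters of 4 of the upregulated members are shown as examples: EPHB1, SEMA5A, SLIT2 and SLIT3. Each is a gene with a single RefSeq start, as are other upregulated members such as EFNB2 and PLXNA3. The windows run from 250 bases before to 50 bases after the start and come from RefSeq on GRCh38.p14, a later build than that of the files. Capitals mark matches on either strand to the TATA box (TATAAA), the CCAAT box (CCAAT), the Sp1 GC box (GGGCGG) and the core of the hypoxia response element (ACGTG or GCGTG), and matches may touch or overlap. The positions are chr3:134795010-134795309 on the plus strand for EPHB1, chr5:9546026-9546325 on the minus strand for SEMA5A, chr4:20251655-20251954 on the plus strand for SLIT2 and chr5:169301090-169301389 on the minus strand for SLIT3. All are written 5′ to 3′ on the strand of the gene.
EPHB1: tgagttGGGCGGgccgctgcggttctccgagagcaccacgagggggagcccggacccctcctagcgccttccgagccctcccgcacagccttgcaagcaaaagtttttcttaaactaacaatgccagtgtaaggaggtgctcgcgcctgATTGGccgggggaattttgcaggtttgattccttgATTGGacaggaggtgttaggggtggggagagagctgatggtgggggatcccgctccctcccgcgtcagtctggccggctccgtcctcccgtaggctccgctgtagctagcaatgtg
SEMA5A: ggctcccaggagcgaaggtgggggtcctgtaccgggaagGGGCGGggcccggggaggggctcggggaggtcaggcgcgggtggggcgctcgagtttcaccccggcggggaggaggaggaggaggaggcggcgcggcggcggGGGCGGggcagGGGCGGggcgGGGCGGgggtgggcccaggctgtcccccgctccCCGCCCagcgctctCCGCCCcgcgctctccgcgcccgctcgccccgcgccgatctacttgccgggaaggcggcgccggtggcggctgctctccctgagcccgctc
SLIT2: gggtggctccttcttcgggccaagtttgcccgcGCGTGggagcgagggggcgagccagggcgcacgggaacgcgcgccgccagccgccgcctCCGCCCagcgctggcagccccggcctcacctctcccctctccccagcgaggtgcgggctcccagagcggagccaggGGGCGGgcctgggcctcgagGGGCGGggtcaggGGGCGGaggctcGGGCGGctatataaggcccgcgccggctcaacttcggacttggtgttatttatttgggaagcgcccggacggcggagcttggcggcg
SLIT3: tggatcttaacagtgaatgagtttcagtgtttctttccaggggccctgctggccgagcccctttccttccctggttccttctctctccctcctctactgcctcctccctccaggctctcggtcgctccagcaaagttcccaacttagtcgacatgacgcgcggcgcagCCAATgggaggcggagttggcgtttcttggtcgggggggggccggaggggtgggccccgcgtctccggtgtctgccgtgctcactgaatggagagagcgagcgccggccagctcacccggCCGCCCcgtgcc

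SEMA5A and SLIT2 hold a GC-rich window (81.0% and 74.3% G and C) with repeated GC boxes, and SLIT2 also holds a hypoxia core. EPHB1 and SLIT3 hold a CCAAT box beside a GC box, and none of the 4 windows holds the exact letters TATAAA. The SLIT2 window does hold the similar stretch tatataag, which this search leaves unmarked, so it cannot be called free of a TATA box. The window of EFNB2, which is not shown, holds TATAAA on the strand opposite the gene. Over all 104 promoter windows found for members, the GC box was present in 74, the hypoxia core in 58, the CCAAT box in 29 and the TATA box in 3. Among all 35114 windows of RefSeq these motifs were present in 45.0%, 48.4%, 34.6% and 11.5%. The median G and C content was 64.8% in members and 58.7% in all windows. It was 65.7% in the 43 windows of upregulated members, where 28 held the GC box, and 67.0% in the 29 windows of the other tested members, where 26 held it. Such matches describe the sequence and do not show that a factor binds.

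The other genes of these pathways were followed from lists of partners and effectors outside the naming rule. Of 105 such genes 85 were tested, 32 were upregulated and 8 downregulated, that is 37.6% and 9.4%, against 16.2% and 13.0% of all genes tested, with a median log2 fold change of 0.10 against -0.004. The same shares of all genes are the background of the shorter lists that follow. The upregulated count fell to 21 without Caki2+PBRM1 B, and the downregulated count to 5 without any library except Caki2+Vector A. On the list for netrins, repulsive guidance molecules (RGM) and netrin-G proteins, 5 of 8 tested genes were upregulated by limma and none downregulated. The upregulated genes were NTNG1, NTNG2, MAGED1, PITPNA and NEO1. LRRC4 and LRRC4C, also on this list, had no read and 5 reads in all. NTNG1 and NTNG2, which encode netrin-G proteins, lipid-anchored relatives of the netrins, changed most among the upregulated genes. NTNG1 was at 18.0, 21.7 and 12.0 normalized counts in Caki2+Vector and at 52.0, 46.2 and 61.3 in Caki2+PBRM1 (log2 fold change 1.60, adjusted p = 1.72e-06 from limma). NTNG2 was at 18.0, 27.4 and 30.0 and at 76.9, 56.9 and 55.4 (1.31, adjusted p = 9.41e-06). MAGED1, an adaptor that binds UNC5A, was upregulated by 0.63 (adjusted p = 1.65e-13).

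Of 15 tested Slit and Robo partners 6 were upregulated and 1 (ENAH, an actin regulator) was downregulated, none by as much as 0.5 on the log2 scale. Effectors of semaphorins and plexins split into 7 upregulated and 3 downregulated (MICAL1, DPYSL5 and RRAS) of 24 tested. FURIN, the protease that processes class 3 semaphorins, was upregulated from 495.1 ± 45.1 to 726.8 ± 27.4 normalized counts (log2 fold change 0.56, adjusted p = 6.61e-08 from limma). RND3, a small GTPase that opposes RhoA, was upregulated from 560.6 ± 18.9 to 824.8 ± 24.0 (0.56, adjusted p = 3.5e-09). CRMP1, a mediator of semaphorin 3A signaling, had overlapping groups (0.54, adjusted p = 0.0199), and its call was lost with DESeq2 (0.0811) and without Caki2+Vector C (0.0807), Caki2+PBRM1 A (0.0810) or Caki2+PBRM1 B (0.109).

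Effectors of Eph receptors and ephrins gave 7 upregulated and 2 downregulated (CHN1 and NGEF) of 23 tested. KALRN, a guanine exchange factor that acts below EphB receptors, was upregulated from 27.1 ± 3.8 to 66.2 ± 6.3 normalized counts (log2 fold change 1.26, adjusted p = 2.2e-06 from limma). The related Rac GTPase-activating proteins CHN1 and CHN2 had opposite signs. CHN1 was downregulated from 259.9 ± 14.8 to 176.0 ± 4.7 (-0.56, adjusted p = 7.28e-06). CHN2 was at 8.2 ± 2.2 and 16.8 ± 1.7 (0.97, adjusted p = 0.0191), but it passed the filter through Caki2+PBRM1 alone and its call was lost with DESeq2 (0.130) and without Caki2+Vector A (0.0766), Caki2+PBRM1 A (0.0777) or Caki2+PBRM1 B (0.0632).

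Of 12 tested GDNF ligands and RET adaptors 5 were upregulated (NCAM1, GRB10, DOK5, PRKCA and SORL1) and SHC1 was downregulated. GRB10, an adaptor of receptor tyrosine kinases that binds RET, was upregulated from 709.0 ± 28.1 to 1286.5 ± 38.7 normalized counts (log2 fold change 0.86, adjusted p = 4.51e-14 from limma). DOK5, another RET adaptor, had overlapping groups with 25.3 ± 6.1 and 47.2 ± 15.5 (0.84, adjusted p = 0.0078), and its call was lost without Caki2+PBRM1 A (0.0724) or Caki2+PBRM1 C (0.0758). Among the FLRT partners, LPHN1 (latrophilin 1) was upregulated by 0.40 on the log2 scale (adjusted p = 0.00318) and FGFR1, a receptor whose signaling FLRT proteins modulate, was downregulated (-0.33, adjusted p = 1.25e-05). LPHN2 and RND3 were the other upregulated genes of the 4 tested FLRT partners.

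The remaining 26 members lay under the filter, with no value above 10.8. Of these, EPHA1, EPHA8 and GFRA4, had no read in any sample. Receptors made up 15 and ligands 11, and the class A Eph receptors gave 7 of them. SEMA5B had no read in Caki2+Vector and 2.2, 0.9 and 2.5 normalized counts in Caki2+PBRM1, and with no filter on low counts SEMA5B and GFRA2 were added to the upregulated members. These low values cannot show whether a member was absent or changed.

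On GRCh37, EPHB1 spans chr3:134514102-134979309 (plus strand), ROBO1 chr3:78646389-79817148 (minus), SLIT2 chr4:20253528-20622184 (plus), SLIT3 chr5:168088745-168728143 (minus), SEMA5A chr5:9035145-9546187 (minus), FLRT2 chr14:85996488-86120772 (plus) and NTN1 chr17:8924827-9147317 (plus). Members lie on 21 chromosomes, 13 of them on chromosome 3, which also carries PBRM1. SEMA3B and SEMA3F, separated by 78.5 kb on chromosome 3, had log2 fold changes of 0.53 and 0.57, and PLXNA3 and PLXNB3, 641.8 kb apart on chromosome X, had 0.81 and 0.53. EFNA1 and EFNA3, 40.3 kb apart on chromosome 1, had 0.22 and 0.49, the former without a call. The other neighbors within 1000 kb, where both were tested, had values of opposite sign or a value near 0, and no test of likeness between neighbors was run. ROBO1 and ROBO2, 947.3 kb apart, had 0.86 and -0.20, SEMA3E and SEMA3A, 306.6 kb apart, had 0.73 and 0.01, and EFNA3 and EFNA4, 9.3 kb apart, had 0.49 and -0.05.

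Many members are neural genes, so neuronal markers were read beside them. Of 11 neuronal markers 4 reached 10 normalized counts in at least 3 samples, while ELAVL4 and STMN2 had no read in any sample. In sum the list reached 2953.7 to 3293.6 in the Caki2+Vector samples and 5608.5 to 5745.0 in the Caki2+PBRM1 samples, of which NEFL, a neurofilament gene, gave 2938.7 ± 171.2 and 5504.8 ± 80.9 (log2 fold change 0.91, adjusted p = 4.09e-17 from limma). SNAP25, NEFM and RBFOX3, the other markers that were tested, received no call. The part of this list in the members' changes was not tested. None of 10 endothelial markers passed the filter, with CDH5, TEK, FLT1 and ERG at 0 in every sample. Of 9 fibroblast markers 3 did, with summed levels of 105.5 to 114.3 and 104.1 to 131.5, and of 8 leukocyte markers 2 did, CD68 and ITGAM, with 2174.5 to 2371.4 and 2110.0 to 2139.4. CD68 made up most of the leukocyte sum, with means of 2069.2 and 1917.3 (log2 fold change -0.11, adjusted p = 0.0461 from limma). All of its exon bases (100.0%) are shared with other annotated genes. PTPRC, another leukocyte marker, had means of 4.8 and 0.7.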

How the data were processed

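Poly(A) RNA of the 6 samples was sequenced as paired ends. The authors aligned clean reads to hg19 with STAR, counted them on genes of the UCSC annotation with htseq-count and normalized the counts with DESeq2; versions and the strand setting are not given in the sources used here. The deposited values are normalized counts, a signal equal to reads divided by a size factor per sample (0.834 to 1.191), and 100.0% of them came out as whole reads (within 0.01).

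Groups and replicate letters were taken from the labels. The filter retained the 13303 genes at or above 10 normalized counts in 3 or more samples. Their log2(normalized count + 1) was compared between Caki2+PBRM1 and Caki2+Vector with limma 3.58.1 (trend, robust) in R 4.3.3, with Benjamini-Hochberg adjustment over all genes tested and an adjusted p under 0.05 as the threshold. Fold changes on this scale understate those of low genes. For a single gene an exact permutation test of 3 against 3 cannot go below 0.1, so none is given. Values in every sample are given for members changed by at least 0.5 on the log2 scale, for the most abundant ligand and receptor of each family and for SLIT2, GFRA1, SEMA3E, PLXNA1 and FLRT2. Members, lists of partners and markers, and tests were chosen with earlier results of these data known; partner genes changed by less than 0.5 on the log2 scale were named after their values were seen, except NEO1 and the GDNF family ligands. Coordinates and transcript lengths are those of GENCODE 44 on GRCh37, in which all 76 members were found. Alternatives were edgeR 4.0.16 and DESeq2 1.42.0 on the recovered reads, other pseudocounts, filters and thresholds, quantile normalization, a replicate block and leaving out each replicate. The fits were tested on simulated data.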

Additional observations from a re-analysis of the deposited data

How the results depend on the processing

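Of the 29 members with a call, 20 kept it under every alternative (EPHB3 and FLRT2 were no longer tested when 10 counts were asked of every sample) and 23 kept it with each replicate left out. Against 28 upregulated members, there were 29 with edgeR (28 of them shared, with SEMA4B added), 22 with DESeq2, 25 with quantile normalization, 26 with at least 10 counts in every sample, 21 at an adjusted p under 0.01, and 22 to 28 with a replicate left out. Over all genes tested, 2152 upregulated genes became 2177 with edgeR, 1484 with DESeq2, 1938 with quantile normalization, 1496 at an adjusted p under 0.01, and 1649 to 2252 with a replicate left out. Downregulated members, 1 with all samples, numbered 1 to 2 with a replicate left out (2 without Caki2+Vector B). Among the 105 pathway genes, 32 upregulated became 21 to 32 with a replicate left out (21 without Caki2+PBRM1 B), and 8 downregulated became 4 with DESeq2, 4 at an adjusted p under 0.01 and 5 to 10 with a replicate left out (5 without any library except Caki2+Vector A). Fewer genes passed in all with DESeq2 (2517 against 3886, and 3975 with edgeR), and the cause was not tested. Members without a call changed sign when a replicate was left out, with log2 fold changes of EFNA4 -0.15 to 0.08, EPHB2 -0.15 to 0.01, PLXNB1 -0.11 to 0.00, PLXNC1 -0.22 to 0.01, ROBO3 -0.12 to 0.09, SEMA3A -0.03 to 0.04 and SEMA7A -0.03 to 0.22. With the replicate block, 2 members were downregulated (ROBO2 added) and 29 upregulated (PLXND1 and SEMA4B added, SEMA4G lost). The letters do not pair the samples: deviations from the group means correlated across genes at 0.006, -0.008 and 0.014 for the same letter and at -0.024 to 0.017 for others. Depth limits the 26 members under the filter and those with few reads, such as EPHB3, RET and FLRT2.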
